A study of Mus musculus with 2 samples.

Results

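The genes described are those of the plasminogen activator system in primary osteoblasts, the bone-forming cells, taken from mouse skull caps. They are the activators Plat and Plau, the receptor Plaur and the serpins Serpine2, Serpinb2 and Serpinf1, chosen by name as all probe sets whose annotation names only 1 of these genes. Of the 6 genes, 5 had such a probe set, with 8 probe sets among them, out of 18193 genes named on the array. Serpine2 had none in the annotation used and was not analysed here. Cells of 5-day-old C57BL/6 mice were grown for 3 days in α-MEM with 10% serum, kept without serum overnight and then held for 6 h in serum-free α-MEM at pH 7.2. The control culture had 1 mM phosphate and the treated culture 4 mM phosphate, added as a sodium phosphate solution, so that the added sodium cannot be told apart from the added phosphate. Each condition was measured on 1 Affymetrix array, so there was no replicate error and no test, and every difference describes these 2 arrays.

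Plasminogen is an inactive protease precursor that tissue-type activator (Plat) and urokinase-type activator (Plau) cut into plasmin. Plasmin dissolves fibrin, cleaves matrix proteins and activates other proteases and latent growth factors. Plaur holds urokinase at the cell surface, while inhibitors of the serpin family trap the activators in inactive complexes. In bone, plasminogen activators are made by osteoblasts and have long been studied as enzymes that change with resorptive hormones and growth factors.

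The sequences upstream of the transcription start are shown for Plaur, Serpinb2 and Serpinf1, the 3 measured genes matched to the promoter table used, so that the receptor and both serpins can be read beside their values. None is shown for Plat and Plau. They come from RefSeq (build GRCm38.p6), cover the 250 bases before the start and read 5′ to 3′ on the gene's strand. Capitals mark matches on either strand to the letters TGANTCA for an AP-1 site, TGACGTCA for the cAMP response element, TATAAA for the TATA box, CCAAT for the box of that name and GGGCGG for the GC box. The Plaur window is chr7:24462233-24462482 on the plus strand, the Serpinb2 window chr1:107511173-107511422 on the plus strand and the Serpinf1 window chr11:75422624-75422873 on the minus strand.
Plaur: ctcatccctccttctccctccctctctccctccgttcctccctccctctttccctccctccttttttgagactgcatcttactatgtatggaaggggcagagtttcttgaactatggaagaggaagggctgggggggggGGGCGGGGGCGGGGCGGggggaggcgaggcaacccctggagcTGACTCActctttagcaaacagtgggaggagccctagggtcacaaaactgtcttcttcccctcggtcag
Serpinb2: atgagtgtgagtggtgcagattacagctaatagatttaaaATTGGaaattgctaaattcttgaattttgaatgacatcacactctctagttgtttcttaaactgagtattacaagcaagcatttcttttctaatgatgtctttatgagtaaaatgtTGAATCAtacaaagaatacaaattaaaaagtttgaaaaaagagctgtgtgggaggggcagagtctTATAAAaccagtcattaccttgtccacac
Serpinf1: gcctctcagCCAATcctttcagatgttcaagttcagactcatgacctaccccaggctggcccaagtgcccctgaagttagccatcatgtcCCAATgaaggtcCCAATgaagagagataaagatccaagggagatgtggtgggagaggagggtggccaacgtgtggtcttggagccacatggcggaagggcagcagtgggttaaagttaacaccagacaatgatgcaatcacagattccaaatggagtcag

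The 3 windows differed in makeup. Plaur had 1 match to the AP-1 letters, TGACTCA, from 69 to 63 bases before the start, and 3 GC boxes further upstream, of which 1 pair shares a base. Serpinb2 had 1 match to the AP-1 letters, TGAATCA, from 94 to 88 bases before the start, a TATA box from 29 to 24 bases before it and 1 CCAAT box on the opposite strand. A second RefSeq start of Serpinb2 lies downstream, and its window overlaps the one shown and holds the same AP-1 and TATA letters. Serpinf1 had 3 CCAAT boxes and no match to the AP-1 letters. None of the 3 windows held the cAMP response element letters. Among 32841 windows of this length in the same RefSeq table, alternative starts included, 6.75% held the AP-1 letters, 1.55% the cAMP response element, 12.4% the TATA box, 33.9% the CCAAT box and 32.8% the GC box. The share of G and C was 59.6% for Plaur, 32.4% for Serpinb2 and 51.6% for Serpinf1, against a median of 52.4% over all windows. These matches describe letters only, and no binding was measured.

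Signals are MAS5 intensities in arbitrary units, and those of different probe sets are not comparable with each other. Values below a floor of 21.5, the median of all signals of both arrays, were raised to it before log2 ratios (4 mM minus 1 mM) were taken. A gene with 1 array at the floor therefore has a bound, written as "at least". The floor was exceeded by 49.0% of 45037 probe sets in the control and by 51.0% in 4 mM phosphate. The only error at hand was technical, from genes with several probe sets. The SD of a probe set's log2 ratio was 0.38 for dim signals up to 100, 0.25 for signals from 100 to 400 and 0.16 for brighter ones. It leaves out differences between cultures. Poly-A spikes, the manufacturer's RNAs carried through labelling, had a median log2 ratio of 0.46. The 18 probe sets of the manufacturer's hybridization controls had a median of 0.23, so the size of the shift depends on the control used. Setting the poly-A spikes equal lowers every ratio given here by 0.46, with the median of all measured genes moving from −0.06 to −0.52.

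Across the system, the receptor had the largest ratio of those not given as a bound, both activators were close to 2-fold higher, and of the serpins Serpinb2 had a bound above 0 and Serpinf1 a ratio near 0. Of the 8 probe sets, 7 were above the floor on at least 1 array and 5 on both. By a 2-fold criterion 1 of the 5 genes, Plaur, was higher and none was lower, against 2.28% and 2.92% of 12241 measured genes. At 1.5-fold, 3 of the 5 genes were higher and none was lower, against 7.25% and 12.1% of all measured genes. With the poly-A spikes set equal Plat (0.50) and Plau (0.49) fell short of 1.5-fold, as did Plau (0.56) with the floor at percentile 65. Serpinb2 passed 1.5-fold when no floor, a floor at percentile 35 or a pseudocount in place of the floor was used. The share of all measured genes past 1.5-fold was not taken under these settings, so they allow no comparison at that criterion. All 5 log2 ratios lay above 0, which held for 44.1% of measured genes. The sign of Serpinb2 was fixed in advance here, since only its 4 mM signal exceeded the floor. Serpinf1 lay below 0 after quantile normalization and with the poly-A spikes set equal. The median of the 5 was 0.95, against −0.06 over all measured genes. These genes were chosen with earlier results of these data known, so the contrasts with all genes are descriptive.

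**Figure D1:**
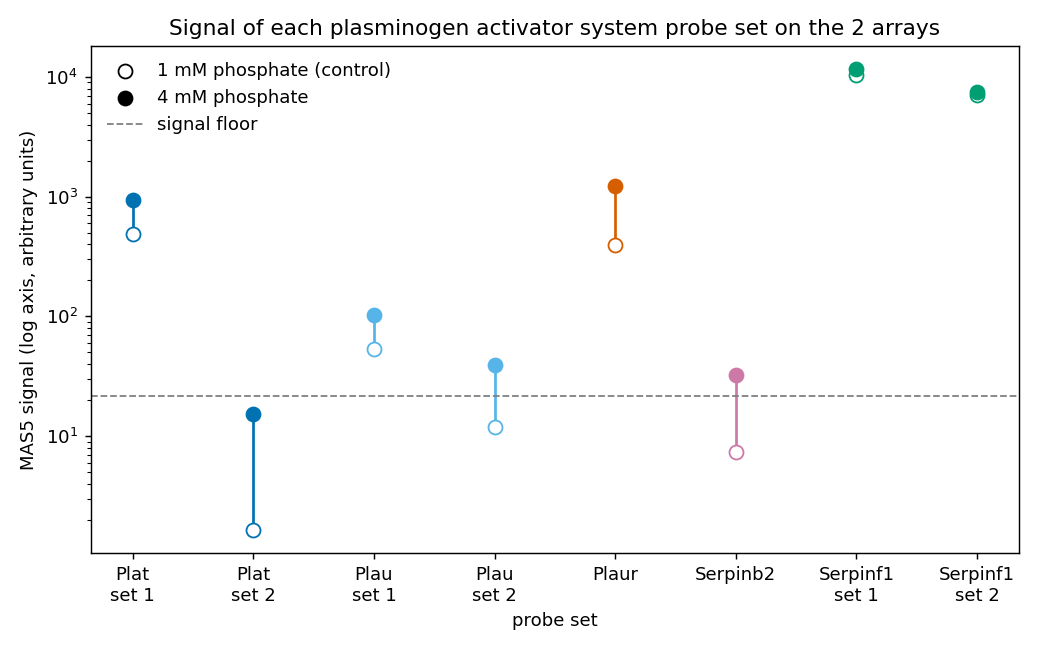
MAS5 signal (log axis, arbitrary units) of each probe set that names only Plat, Plau, Plaur, Serpinb2 or Serpinf1, on the control array (open circles) and the 4 mM phosphate array (filled circles), 1 array each, with the floor of 21.5 dashed. Plaur rises from 394 to 1219, while the circles of each Serpinf1 probe set nearly coincide. Of the 8 probe sets, 3 have a control signal below the floor, and heights of different probe sets are not comparable.

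Plat encodes tissue-type plasminogen activator, the secreted protease best known for dissolving clots. Its brighter probe set read 484 in the control and 940 in 4 mM phosphate. This is 1.94-fold higher (log2 ratio 0.96), at a signal level where the technical SD was 0.16. The ratio was the 306th highest of 12241 measured genes, so that 2.49% of genes had a higher one. A second Plat probe set gave 1.64 and 15.3, both below the floor, and adds no ratio.

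Plau encodes urokinase-type plasminogen activator, which works bound to its receptor in matrix breakdown around cells. Its signal was 53.6 in the control and 104 in 4 mM phosphate, which is 1.93-fold higher (log2 ratio 0.95), at a dim level where the technical SD was 0.38. The second probe set lay below the floor in the control, at 11.8, and reached 39.3 in 4 mM phosphate, at least 1.83-fold more. Both probe sets thus pointed the same way. The log2 ratios of Plat and Plau differed by 0.01, far less than their combined technical SD of 0.41.

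Plaur encodes the urokinase receptor, a surface protein held by a lipid anchor that also contacts integrins and vitronectin. Its single probe set read 394 in the control and 1219 in 4 mM phosphate. It was 3.09-fold higher (log2 ratio 1.63), at a level where the technical SD was 0.25. The ratio was the 102nd highest of 12241 measured genes, and 0.825% of genes had a higher one. The Plaur ratio exceeded that of Plat by 0.67 in log2, which is 2.23 times their combined technical SD of 0.30, and that of Plau by 0.68, which is 1.48 times a combined SD of 0.46. The receptor and the activators were therefore not told apart as clearly for Plau as for Plat.

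Serpinb2 encodes plasminogen activator inhibitor type 2, a largely intracellular inhibitor of urokinase that is inducible in many cell types. It was below the floor in the control, at 7.42, and reached 32.1 in 4 mM phosphate, just above the floor. This made it at least 1.49-fold higher, where the deposited signals taken as they stand give a log2 ratio of 2.11. Without a floor it therefore counted as more than 2-fold higher, and the number of the 5 genes at least 2-fold higher became 2. The share of all measured genes at least 2-fold higher then rose as well, from 2.28% to 4.22%. Its 1 probe set had no other to set beside it, and signals this close to the floor are the noisiest of MAS5.

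Serpinf1 encodes pigment epithelium-derived factor, a secreted serpin that does not inhibit proteases, whose loss in humans impairs bone mineralisation. Its brighter probe set read 10456 in the control and 11664 in 4 mM phosphate. The second probe set gave 7037 and 7546. The log2 ratios were 0.16 and 0.10, at or below the technical SD of 0.16. The direction was not stable, since the ratio was −0.03 after quantile normalization and −0.31 with the poly-A spikes set equal. Plaur exceeded Serpinf1 by 1.47 in log2 (combined technical SD 0.30) and Plat exceeded it by 0.80 (combined technical SD 0.23).

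**Figure D2:**
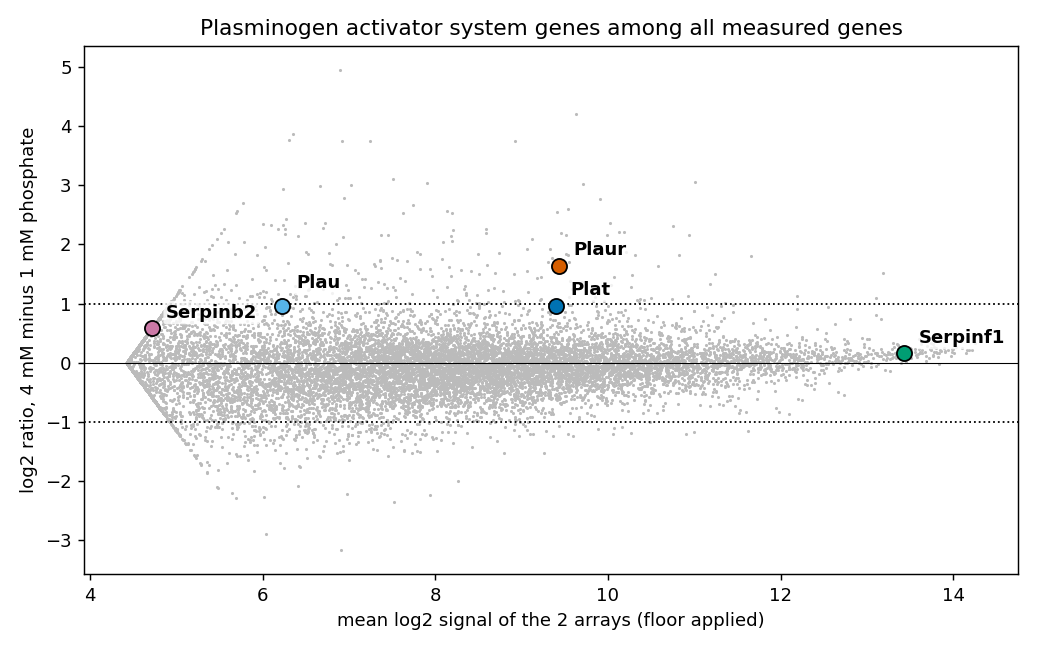
Log2 ratio of 4 mM over 1 mM phosphate against the mean log2 signal of both arrays for 12241 measured genes (grey), with the 5 named genes in colour and 2-fold differences dotted; each point is 1 gene measured on 1 array per condition. Plaur lies above the dotted line at 1.63, Plat (0.96) and Plau (0.95) lie just under it, Serpinb2 sits on the slanted edge formed by genes with 1 array at the floor, and Serpinf1 lies near 0.

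The remaining genes of plasmin formation were taken from a list of 44, of which 40 had a probe set naming only them and 22 were measured. Past 2-fold, 3 of the 22 were higher and none was lower, against 2.28% and 2.92% of all measured genes, and their median log2 ratio was 0.13. At 1.5-fold, 5 were higher, 3 were lower and 14 lay within it, against 7.25% and 12.1%. With the poly-A spikes set equal, 1 gene (Tnfaip6) was 2-fold higher and 3 (Hpn, Plgrkt and Tfpi) were 2-fold lower. Of all measured genes, 1.05% were higher and 14.1% lower under that setting, so 3 of 22 lower is near the general share. The median of the 22 was then −0.33, against −0.52 over all measured genes. Itgb3 and Procr then stood at 0.90 and 0.96. Ratios above 0 were seen for 14 of the 22, against 44.1% of all measured genes. With the poly-A spikes set equal 5 of the 22 lay above 0, in a setting that lowers the ratio of every gene by 0.46. The share of all measured genes above 0 was not taken under it, so 44.1% is no reference for that count. Plg, the plasminogen gene itself, was at the floor on both arrays (0.829 and 3.76), as were Serpinf2, the plasmin inhibitor antiplasmin (2.28 and 5.29), and Vtn, the matrix protein vitronectin (9.29 and 14.6).

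Surface partners of the system pointed both ways. Itgb3, the β3 integrin chain that forms a vitronectin receptor, had signals of 101 and 260 in control and 4 mM phosphate (2.58-fold higher), while its second probe set was at the floor on both arrays. S100a10, which pairs with annexin A2 to bind plasminogen and tissue-type activator, went from 5518 to 9246 (1.68-fold higher), with log2 ratios of 0.83 and 0.36 on its other probe sets. The set at 0.83 is of a type that can also detect related transcripts. Anxa2, the partner of S100a10, had signals of 8493 and 9965, a log2 ratio of 0.23 that turned to −0.23 with the poly-A spikes set equal. Plgrkt, a membrane receptor that binds plasminogen through a carboxy-terminal lysine, was lower in 4 mM phosphate, at 888 and 486 (log2 ratio −0.87). Its ratio lay below 0 under all 8 alternative settings. Lrp1, which takes up complexes of activator and inhibitor, had signals of 678 and 659, a log2 ratio of −0.04. A dim second probe set of Lrp1, at 21.3 and 49.3, gave a log2 ratio of at least 1.20. Mrc2, a collagen uptake receptor that associates with Plaur, had signals of 1315 and 1342, a log2 ratio of 0.03.

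Among inhibitors and cofactors of the list, the highest ratio was that of Tnfaip6, a secreted hyaluronan-binding protein that strengthens the antiplasmin action of inter-α-inhibitor. It went from 47.4 to 229 (4.83-fold higher) and stayed at least 2-fold higher under all 8 alternative settings, with log2 ratios from 1.70 to 2.37. Procr, the receptor of the anticoagulant protein C, had signals of 118 and 316 (2.69-fold higher). Its only probe set is of a type that can also detect related transcripts. Tfpi2, an inhibitor of plasmin, had signals of 102 and 183 (log2 ratio 0.84). Tfpi, which blocks the start of coagulation by tissue factor, had 562 and 348 (log2 ratio −0.69) on its brightest probe set, but between −0.43 and 0.05 on the 3 others. Hpn, encoding the membrane protease hepsin, had 37.4 in the control and lay below the floor in 4 mM phosphate, at least 1.74-fold lower. Serpini1, neuroserpin, an inhibitor of tissue-type activator, barely exceeded the floor in the control (23.7) and lay below it in 4 mM phosphate (4.78), which bounds its log2 ratio at −0.14.

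**Figure D3:**
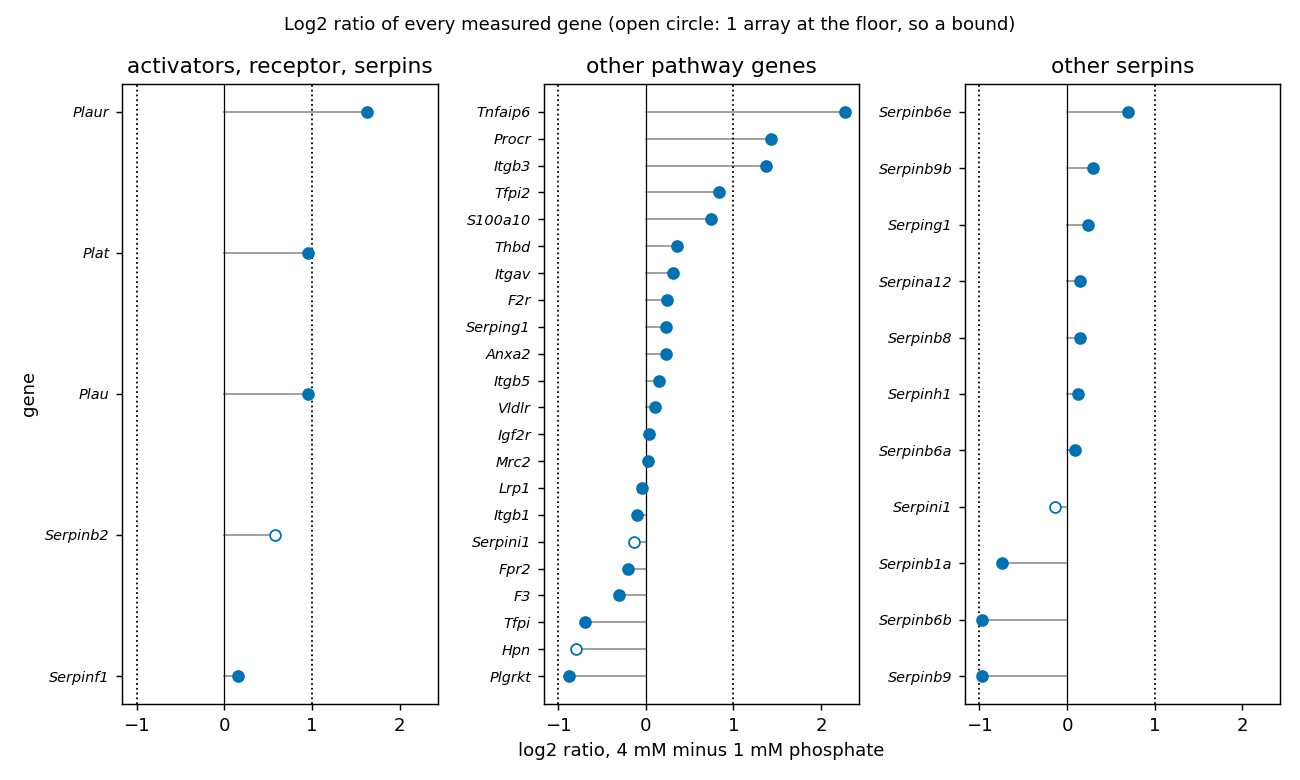
Log2 ratio of 4 mM over 1 mM phosphate for every measured gene of the activator, receptor and serpin group (left), of the list of other plasminogen pathway genes (middle) and of the other serpins (right), 1 array per condition, with 2-fold differences dotted and open circles where 1 array was at the floor. Tnfaip6, Procr and Itgb3 lie beyond 2-fold in the middle panel, while no gene in the right panel does.

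The other serpins on the array were set beside Serpinb2 and Serpinf1. Serping1 and Serpini1 were measured in both this group and the pathway list. Of the 38 genes, 27 were at the floor on both arrays and 11 were measured, with a median log2 ratio of 0.13, which became −0.34 with the poly-A spikes set equal. None of the 11 was 2-fold different, where 5.20% of all measured genes were. With the spikes set equal, 3 of the 11 were 2-fold lower, against 14.1% of all measured genes under that setting. At least 1.5-fold lower, against 12.1% of all measured genes, were 3 genes of the same clade as Serpinb2. Serpinb9, an inhibitor of granzyme B, had signals of 497 and 253, a log2 ratio of −0.97 with −0.96 on its second probe set. Serpinb6b had 173 and 88.0, also a log2 ratio of −0.97. Serpinb1a, an inhibitor of neutrophil elastase, had 345 and 207, a log2 ratio of −0.74 with −1.08 on its second probe set. That second set is of a type that can also detect related transcripts. Serpinb6e was higher, at 59.0 and 95.6 (log2 ratio 0.70), on a probe set type that can also detect related transcripts. These ratios kept their sign under all 8 alternative settings.

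Marker genes of cell types that also make these proteins were read on the same arrays. The sums of signal below add probe sets of different sensitivity and are given as totals only, since 1 or 2 bright genes can carry them. In a culture measured as a whole, fewer cells of a type and less RNA per cell cannot be told apart. All 7 osteoblast markers with a probe set were above the floor on both arrays, with summed signals of 68383 in the control and 76793 in 4 mM phosphate and log2 ratios between −0.39 and 0.34. Macrophage and osteoclast markers were also present, with 11 of 12 measured, and only Itgam was at the floor. Their summed signal was 17330 in the control and 16338 in 4 mM phosphate, with Lyz2 (7895 and 7745) and Ctsk (4097 and 4376) its brightest members. Ratios below 0 were seen for 9 of the 11, against 55.9% of all measured genes, with a median log2 ratio of −0.54 and a range from −0.80 to 1.21. The highest was Cd14, a lipopolysaccharide receptor, at 291 and 671 (2.31-fold higher). Macrophages can express Plaur, Plau, Serpinb2 and Serpinb9, and the part of these cells in the ratios above was not tested. All 8 endothelial markers, Pecam1 and Cdh5 among them, were at the floor on both arrays, with summed signals of 84.8 and 62.0. Of 4 platelet markers, 2 were measured, and the summed signal was 452 in the control and 621 in 4 mM phosphate. Cartilage markers were all measured, 6 of 6, with log2 ratios between −0.14 and 0.17. Their summed signal was 16597 in the control and 16236 in 4 mM phosphate, near that of the macrophage and osteoclast markers. Of 6 muscle markers 3 were measured, with log2 ratios from −1.37 to 0.26 and summed signals of 110 and 107. The lowest was Acta1, skeletal muscle actin, at 55.9 and 21.5. Of 5 neural and glial markers 4 were measured, with log2 ratios from −1.25 to −0.19 and summed signals of 836 and 422, of which S100b gave 614 and 258. Of 4 mast cell markers 1 was measured, Kit, just above the floor in 4 mM phosphate (24.5).

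The ratios of the 5 genes were recomputed under 8 other ways of processing. Plat, Plau and Plaur stayed above 0 under all of them, with log2 ratios from 0.50 to 1.00 for Plat, 0.49 to 1.05 for Plau and 1.17 to 1.67 for Plaur. Plaur was at least 2-fold higher under each, Plau reached 2-fold under quantile normalization and loess correction, and Plat under loess correction. Serpinb2 lay between 0.12 and 2.11 in the 7 settings where it was measured. Only its 4 mM signal exceeded the floor, so a ratio above 0 was largely fixed in advance and is no sign of stability.

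**Figure D4:**
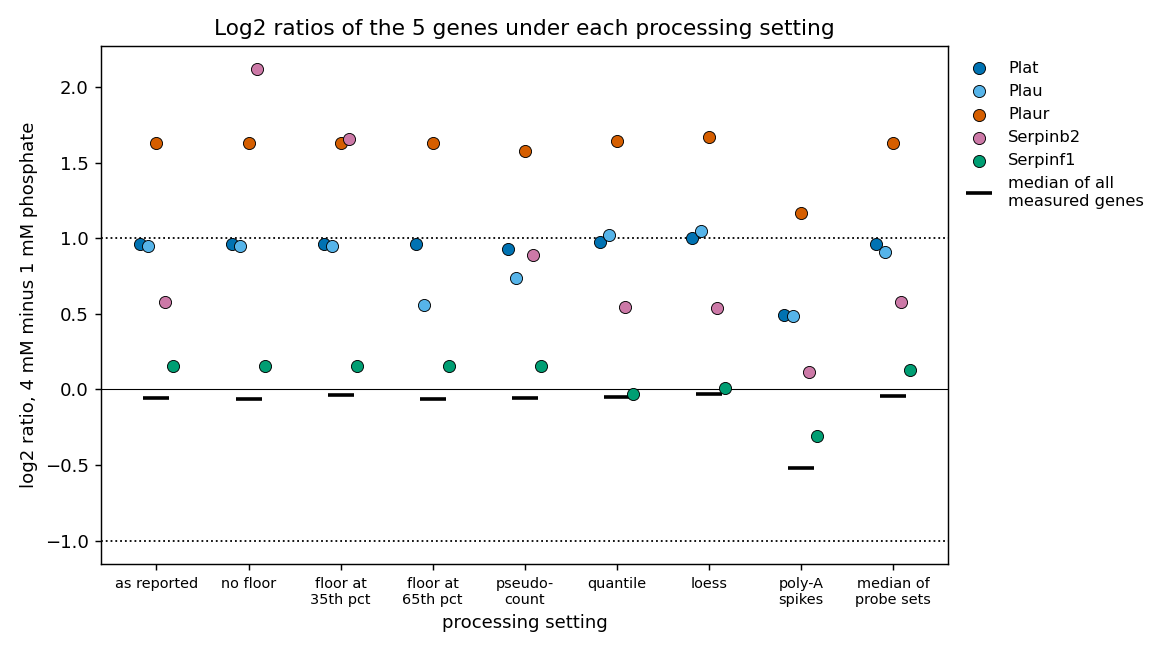
Log2 ratio of 4 mM over 1 mM phosphate of the 5 genes (coloured points) under the reported processing and 8 alternatives, with the median of all measured genes as a black bar and 2-fold differences dotted. Plaur stays above the upper dotted line in each setting, Plat and Plau lie on either side of it, Serpinb2 moves most with the floor, and the poly-A spike setting lowers every point together with the median.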

How the data were processed

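Total RNA of 1 control and 1 phosphate-treated culture (100 ng each) was labelled by the Affymetrix protocol, per the labels' protocols, and measured on 1 array each. The deposited intensity of each probe set, on a linear scale, came from MAS5 in GCOS 1.4, per the submitters' processing notes. The array mean, trimmed by 2% at each end, was 200.0 on both arrays, so a change of total mRNA per cell would be hidden.

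Of 45101 probe sets, 64 manufacturer's controls were kept apart. Of the rest, the annotation named 1 gene for 34945, several for 932 and none for 9160. Symbols were set against the RefSeq table of GRCm38.p6, which held the identifiers of 34741, and 0 changed. A gene's value came from its brightest probe set by mean log2 signal. A gene was measured if at least 1 array exceeded the floor. With 1 array per group, genes were counted by fold (2-fold and 1.5-fold) without a test. Depth has no counterpart on arrays, and their number limits precision. The calculation was tested on simulated data and run in Python 3.11.15 with numpy 2.4.6, pandas 2.3.3 and statsmodels 0.14.6.

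The 6 genes, the lists and the alternatives were chosen with earlier results of these data known. Genes named were the 6 themselves, every measured gene of the pathway list and other serpins at least 1.5-fold different, and Plg, Plgrkt, Serpini1, Serpinf2, Vtn, Anxa2, S100a10, Lrp1 and Mrc2. Serping1, the marker genes and the chromosomal neighbours named were chosen after their values were seen. No gene was named for likeness of pattern, since 2 arrays give 1 ratio per gene. The alternatives were a floor at percentile 35 or 65 of both arrays' signals or none, a pseudocount of the floor's size, quantile normalization, loess correction (span 0.3), poly-A spikes set equal and the median over probe sets.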

Additional observations from a re-analysis of the deposited data

How the results depend on the processing

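No paired analysis was possible because each group had 1 array, and for the same reason no replicate could be left out. Plaur was at least 2-fold higher, and no gene of the 5 was 2-fold lower, under all 8 alternatives. The count of the 5 genes at least 2-fold higher was 2 without a floor and 2 with the floor at percentile 35, both with Serpinb2. It was 2 after quantile normalization (with Plau) and 3 after loess correction (with Plat and Plau). Of all measured genes, 4.22% were 2-fold higher without a floor and 3.77% with the lower floor. The share was 2.37% after quantile normalization and 2.47% after loess correction, against 2.28% in the reported processing. The log2 ratio of Serpinb2 was 2.11 without a floor and 1.66 with the lower floor, and it was not measured with the floor at percentile 65, where Plau had a bound of 0.56. Serpinf1 was at −0.027 after quantile normalization. With the poly-A spikes set equal, the log2 ratios were 0.50 for Plat, 0.49 for Plau, 1.17 for Plaur, 0.12 for Serpinb2 and −0.31 for Serpinf1, with a median of 0.49, because this setting subtracts 0.46 from every ratio. The count of other pathway genes at least 2-fold different was 5 both without a floor and with the lower floor, where Hpn and Serpini1 joined, and 4 with the spikes set equal, of which 1 was higher and 3 were lower. Of the other serpins, 1 was 2-fold different without a floor and 1 with the lower floor (Serpini1), and 3 with the spikes set equal. Of all measured genes, 4.46% were 2-fold lower without a floor and 3.89% with the lower floor. With the spikes set equal, 14.1% were 2-fold lower and 1.05% higher. Dim signals, those of Serpinb2 and Plau above all, limit what these arrays can show.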

Other observations

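The genes next to the 5 measured ones on their chromosomes were read as well, 3 protein-coding genes on each side in RefSeq order, a choice made after seeing the data. Of these 30 neighbours, 22 were measured, 1 was at least 2-fold higher in 4 mM phosphate and none was 2-fold lower, against 2.28% and 2.92% of all measured genes, so that 1 of 22 is no result about these neighbours. The exception was Kcnn4, the gene of a calcium-activated potassium channel and the third neighbour of Plaur on one side, with signals of 134 in the control and 551 in 4 mM phosphate (log2 ratio 2.04). The genes between them were Smg9, at a log2 ratio of 0.39, and Irgc1, at the floor on both arrays. The other 4 measured neighbours of Plaur had log2 ratios between −0.51 and 0.39.

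Neighbours of the remaining genes did not include a 2-fold difference. Those of Plat lay between −0.52 and 0.47, those of Plau between −0.67 and 0.25 and those of Serpinf1 between −0.79 and 0.12. Serpinf2, which lies directly beside Serpinf1, was at the floor on both arrays. In the serpin cluster around Serpinb2, Serpinb7 and Serpinb11 were at the floor on both arrays, and Serpinb8 had signals of 80.7 and 89.1 (log2 ratio 0.14).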
